A study of Mus musculus with 4 samples.

Results

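The genes described here are the TNF ligand and receptor superfamily with its adaptors, read in hair follicle stem cells. Members were chosen by symbol: every row of the count table named Tnfsf or Tnfrsf with a number, plus Tnf, Lta, Ltb, Cd40lg, Fasl and Cd70 among ligands, Ltbr, Cd40, Fas and Cd27 among receptors, and Traf1, Traf2, Traf3, Traf5, Traf6, Birc2, Birc3, Tnfaip3 and Tnip1 among adaptors and feedback regulators. This gave 50 of the table's 24084 genes: 17 ligands, 24 receptors and 9 adaptors. RNA sequencing covered 2 Foxp3-DTR libraries (replicates C and D) and 2 WT libraries (replicates A and C) of hair follicle stem cells sorted from skin epidermis, where they reside in the follicle and fuel hair regrowth. Both groups were C57BL/6 mice aged 7 to 10 weeks. All had their dorsal skin depilated, which starts a new hair growth phase, and were sampled 4 days later. All received diphtheria toxin intraperitoneally at 15 ng/g, the WT mice included. In Foxp3-DTR mice the receptor for this toxin is made under the control of Foxp3, the transcription factor of regulatory T cells, so that the toxin depletes these cells. WT mice lack that receptor and are labelled as having regulatory T cells. The comparison asks how expression in the stem cells differs when regulatory T cells are depleted.

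TNF superfamily ligands are mostly membrane-bound trimers, some of them shed, that cluster receptors on a neighbouring or the same cell. Receptors with a cytoplasmic death domain can recruit caspase 8 through adaptors, while most others bind TRAF proteins and feed NF-kappaB. In the alternative NF-kappaB pathway, a complex of Traf2, Traf3 and the cellular inhibitors of apoptosis Birc2 and Birc3 keeps the kinase encoded by Map3k14 at a low level until a receptor such as the lymphotoxin beta receptor is engaged. In skin, members of the family take part in hair placode formation, inflammation and the crosstalk of keratinocytes with T cells.

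Gene counts per library ranged from 13911765 to 15923154. The defining stem cell markers were abundant in each library. Krt15 stood at 7255 and 10597 CPM (read counts scaled to library size with TMM factors) in Foxp3-DTR C and D, against 9883 and 11753 CPM in WT A and C. Cd34 stood at 1709 and 1625 CPM in Foxp3-DTR, against 936 and 1216 CPM in WT. Of the 10 stem cell markers listed, 3 had a positive and 7 a negative log2 fold change, Foxp3-DTR over WT. Both Foxp3-DTR libraries stood above both WT libraries for 2 of them and below for 5, against 22.0% and 23.7% of all genes tested. Among the 5 was Lhx2, at 425 and 439 CPM in Foxp3-DTR, against 789 and 804 CPM in WT. The replicates of each group differed in epidermal differentiation genes. Krt10, which marks the layers above the basal epidermis, had a level of 458 and 3796 CPM in Foxp3-DTR C and D, against 4562 and 249 CPM in WT A and C. Sex-linked genes separated the groups: the summed level of 4 Y-linked genes was 319 and 260 CPM in Foxp3-DTR, against 0 in both WT libraries. Group cannot be told apart from the animals' sex, nor from whatever the title codes DEP3 (Foxp3-DTR) and DEP2 (WT) mark. All 25 tested members lay on autosomes. In bulk samples such as these, fewer cells of a type and less RNA per cell cannot be told apart.

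Among the members, the stem cells carried transcripts of receptors and adaptors but almost none of the ligands. The ectodysplasin ligand Eda, which the member rule leaves out, stood at 26.1 and 37.6 CPM in Foxp3-DTR C and D, against 49.2 and 54.3 CPM in WT A and C. Summed over the 17 ligands there were 102 and 93 reads in Foxp3-DTR C and D, against 44 and 73 reads in WT A and C. The 24 receptors summed to 18778 and 14949 reads in Foxp3-DTR, against 9949 and 10656 reads in WT. The 9 adaptors summed to 8940 and 5902 reads in Foxp3-DTR, against 4057 and 5494 reads in WT. As a scaled level the receptor sum was 1245 and 1059 CPM in Foxp3-DTR, against 700.4 and 655 CPM in WT, so the groups did not overlap. Tnfrsf1a alone made up 55.1% and 55.3% of that sum in Foxp3-DTR, against 62.6% and 60.6% in WT. Of the 50 members, 25 had enough reads to be tested: 2 ligands, 14 receptors and 9 adaptors. A member can pass this filter on reads through 1 group alone, so the 25 do not stand for all members. Among the other 25, 13 had 0 counts in all 4 libraries and 12 had at most 29 counts in any library. A count of 0 allows at most 0.199 and 0.213 CPM in Foxp3-DTR C and D, and 0.211 and 0.185 CPM in WT A and C, counting error only.

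By the quasi-likelihood test of edgeR, with p-values adjusted by Benjamini and Hochberg's method over all 12920 genes tested, 0 of 25 tested members were called higher and 0 lower in Foxp3-DTR. Over all genes tested, 0.820% were called higher and 0.426% lower, so a count of 0 among 25 is near the background. At an unadjusted p under 0.05 in the same test, 12 members were higher and 0 lower, against 6.76% and 7.89% of all genes tested. DESeq2 called 8 of the 25 higher and limma-voom 1, and neither called any lower. Over all genes, DESeq2 called 3.75% higher and 3.97% lower, and limma-voom 0.875% and 0.511%.  

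The fold change was positive for 22 of the 25 tested members, against 48.6% of all genes tested, and it reached 1 on the log2 scale for 9 of 25, against 5.59% of all genes. Both Foxp3-DTR libraries stood above both WT libraries for 15 members and below both for 0, against 22.0% and 23.7% of all genes. The median log2 fold change of the tested members was 0.76, against -0.01 over all genes. Of the 25, 22 had at least 10 counts in all 4 libraries, and the exceptions were Tnfsf12, Tnfrsf11a and Tnfrsf23. Foxp3-DTR C held the highest level of 16 of the 25 members and Foxp3-DTR D of 4, while WT A held the highest level of 3 and WT C of 2. The lowest level was in WT A for 12 members and in WT C for 10.

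**Figure D1:**
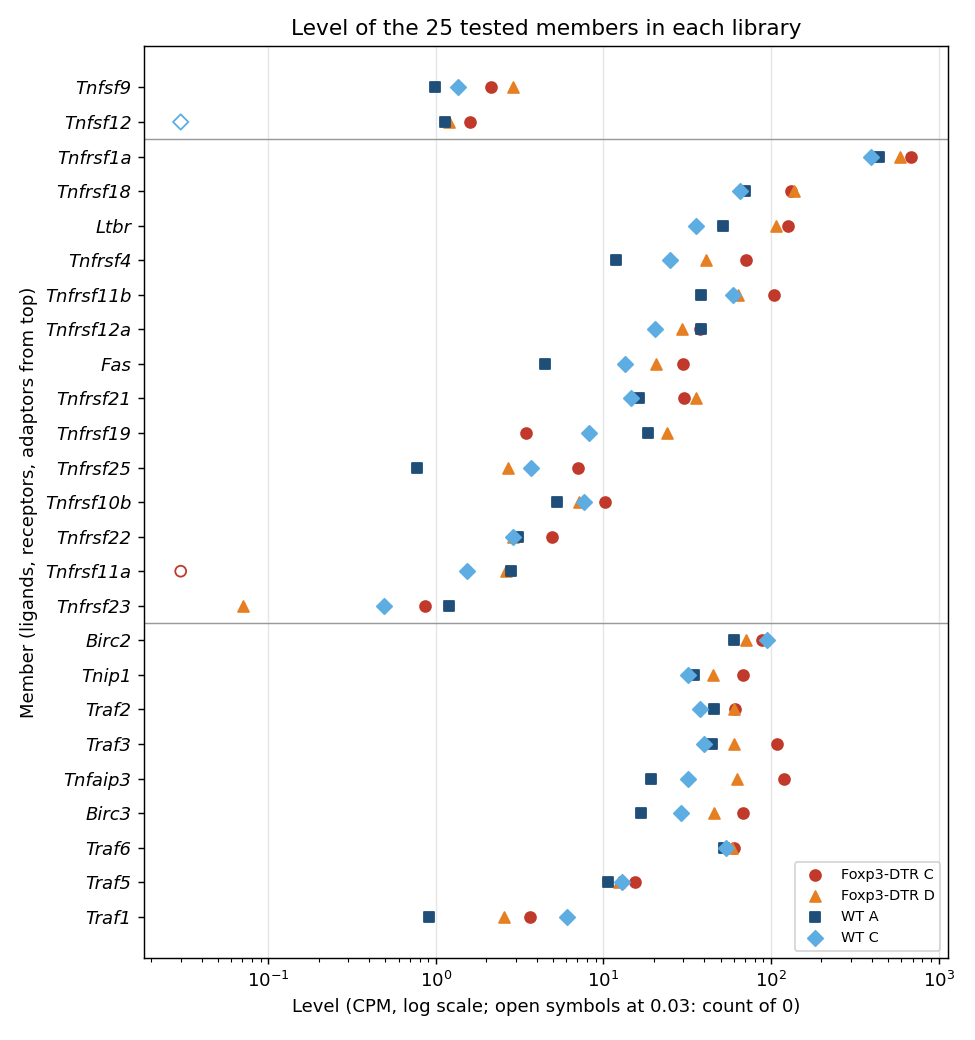
Level of each tested member in each library, in CPM on a log axis, with ligands, receptors and adaptors separated by lines and ordered by level per kb of exonic length within each. Circles and triangles are Foxp3-DTR C and D, squares and diamonds WT A and C, and open symbols mark a count of 0. Tnfrsf1a stands apart at the top of the scale, both tested ligands lie below 3 CPM, and for 15 members both Foxp3-DTR symbols lie to the right of both WT symbols.

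Among the member ligands, none was expressed at more than 2.91 CPM in any library. Tnfsf9, the ligand of the T cell costimulatory receptor Tnfrsf9 (chromosome 17, 57105325 to 57107757), stood at 2.12 and 2.91 CPM in Foxp3-DTR C and D, against 0.986 and 1.35 CPM in WT A and C. The groups did not overlap, but the counts behind these levels were 32 and 41 in Foxp3-DTR, against 14 and 22 in WT. An annotated antisense gene shares 14.9% of the exonic length of Tnfsf9. Without the counter's strand setting, reads from this pair cannot be told apart. The log2 fold change of Tnfsf9 was 1.10 with a standard error of 0.75, which follows the ± sign of all fold changes here, and edgeR's adjusted p was 0.597. Tnfsf12, known as TWEAK, the ligand of Tnfrsf12a, had 24 and 17 counts in Foxp3-DTR, against 16 and 0 counts in WT. Its log2 fold change was 1.32 ± 1.49 (edgeR adjusted p = 0.777). Tnfsf12 shares 48.3% of its exonic length with an annotated read-through gene of Tnfsf12 and Tnfsf13 on the same strand, so its counts are uncertain.

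Tnf itself, the founding cytokine of the family, had 3 and 5 counts in Foxp3-DTR C and D, against 0 and 0 counts in WT. Set against a floor of 3 counts over the WT group, its level was 2.78-fold higher in Foxp3-DTR. This value takes the few Foxp3-DTR reads as exact and is no lower limit. Its neighbours on chromosome 17, the lymphotoxin genes Lta and Ltb, were as sparse. Lta had 10 and 0 counts in Foxp3-DTR, against 3 and 0 counts in WT, and Ltb had 0 and 0 counts in Foxp3-DTR, against 3 and 0 counts in WT. Tnfsf11, which encodes the osteoclast cytokine RANKL, had 0 and 2 counts in Foxp3-DTR, against 3 and 18 counts in WT. Its ratio of Foxp3-DTR over WT was 0.0994, with an exact 95% counting interval of 0.0113 to 0.407. Such an interval pools the reads of each group and leaves out the spread between libraries. The WT libraries themselves differed for Tnfsf11, with most of the reads in WT C.

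Tnfsf15, which encodes the cytokine TL1A, had 0 and 16 counts in Foxp3-DTR C and D, against 0 and 0 counts in WT. All of its reads came from Foxp3-DTR D. Set against a floor of 3 counts over the WT group, its level was 5.57-fold higher in Foxp3-DTR. That value rests on 1 library and takes its reads as exact. Tnfsf18, the ligand of Tnfrsf18, had 10 and 4 counts in Foxp3-DTR, against 0 and 4 counts in WT. The ratio was 3.65 with an exact 95% counting interval of 1.15 to 15.2, which leaves out the spread between libraries. Foxp3-DTR D and WT C had 4 counts each. Tnfsf10, the death ligand TRAIL, had 13 and 1 counts in Foxp3-DTR, against 0 and 8 counts in WT. Tnfsf13b, the B cell survival factor BAFF, had 9 and 6 counts in Foxp3-DTR, against 0 and 21 counts in WT. Tnfsf13 had 1 count in each Foxp3-DTR library and 0 in both WT libraries, and Tnfsf8 had 0 in both Foxp3-DTR libraries and 5 and 0 counts in WT. Tnfsf4, Tnfsf14, Cd40lg, Cd70 and Fasl, which are chiefly ligands of activated lymphocytes and antigen-presenting cells, had 0 counts in all 4 libraries.

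The receptors spanned a wide range. Tnfrsf1a, the death domain receptor for TNF (chromosome 6, 125349362 to 125362484), was the most abundant member per kb of exonic length. Per kb of exonic length its level was 245 CPM per kb in Foxp3-DTR and 161 CPM per kb in WT, above 99.4% and 98.9% of the 15489 genes with reads and a known length. In the libraries it stood at 686 and 586 CPM in Foxp3-DTR C and D, against 438 and 397 CPM in WT A and C. The groups did not overlap. Tnfrsf1a had a log2 fold change of 0.61 ± 0.20, and edgeR's adjusted p was 0.209. Tnfrsf1b, the other TNF receptor, had 8 and 0 counts in Foxp3-DTR, against 0 and 0 counts in WT.

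Ltbr, the lymphotoxin beta receptor (chromosome 6, 125306571 to 125313885), lies 35476 bp from Tnfrsf1a and had the smallest p of all members. It stood at 127 and 107 CPM in Foxp3-DTR C and D, against 51.8 and 35.9 CPM in WT A and C. Every Foxp3-DTR value was above every WT value. The means were 117 ± 14.0 CPM in Foxp3-DTR and 43.8 ± 11.3 CPM in WT (SD, n = 2 libraries each). The log2 fold change was 1.41 ± 0.24, a 2.66-fold difference, and edgeR's adjusted p of 0.0520 missed the threshold of 0.05 narrowly. DESeq2 (adjusted p = 2.72e-05), limma-voom (0.0429), edgeR without the filter on low counts (0.00819), and edgeR without WT A (0.0188) or without Foxp3-DTR D (0.0236) placed it past the threshold, and the range over the 8 alternatives was 2.72e-05 to 0.141. The ratio of Ltbr to Tnfrsf1a reads in the same library, chosen after the values were seen, was 0.185 and 0.182 in Foxp3-DTR, against 0.118 and 0.0903 in WT. The groups did not overlap, and the exact two-sided permutation p of 0.333 is the smallest that 2 libraries against 2 can give. Of the ligands of Ltbr, Tnfsf14 had 0 counts in all 4 libraries, and Ltb had 0 and 0 counts in Foxp3-DTR, against 3 and 0 in WT. Lta, the other lymphotoxin gene, had 10 and 0 counts in Foxp3-DTR, against 3 and 0 in WT.

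Tnfrsf18 and Tnfrsf4, known as GITR and OX40, are best known as costimulatory receptors of T cells, regulatory T cells among them. They lie 9551 bp apart in the same orientation on chromosome 4 (Tnfrsf4 at 156013843 to 156016612, Tnfrsf18 at 156026164 to 156028895). Tnfrsf18 stood at 131 and 136 CPM in Foxp3-DTR C and D, against 69.8 and 65.0 CPM in WT A and C. The replicates of each group were close, and the groups did not overlap. Tnfrsf18 had a log2 fold change of 0.99 ± 0.17, and edgeR's adjusted p was 0.0543. DESeq2 gave an adjusted p of 7.32e-05 and edgeR without the filter 0.0184, within a range of 7.32e-05 to 0.238 over the alternatives. An annotated antisense gene shares 27.2% of its exonic length, and without the counter's strand setting reads from the pair cannot be told apart.

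Tnfrsf4 stood at 70.6 and 40.7 CPM in Foxp3-DTR, against 11.9 and 24.9 CPM in WT. The groups did not overlap, but the replicates of each group lay further apart than those of Tnfrsf18. Tnfrsf4 had a log2 fold change of 1.59 ± 0.44, and edgeR's adjusted p was 0.156 (DESeq2 0.00692, range over the alternatives 0.00692 to 0.568). The ratio of Tnfrsf4 to Tnfrsf18 reads was 0.539 and 0.299 in Foxp3-DTR, against 0.170 and 0.383 in WT, so the groups overlapped (exact permutation p = 0.667). Per kb of exonic length, Tnfrsf18 was at 87.7 CPM per kb in Foxp3-DTR and 44.2 CPM per kb in WT, and Tnfrsf4 at 40.8 CPM per kb in Foxp3-DTR and 13.5 CPM per kb in WT.

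The defining markers of T cells, Tnfrsf4 and Lck aside, were at or near 0 in most libraries. Of the 12 T cell markers in the table, Tnfrsf4 included, 5 had 0 counts in all 4 libraries, namely Cd4, Il7r, Foxp3, Ctla4 and Icos, and 8 had 0 counts in both Foxp3-DTR libraries. The 3 CD3 genes together had 2 and 5 counts in Foxp3-DTR C and D, against 73 and 1 counts in WT A and C. Without Tnfrsf4 the T cell list summed to 2.79 and 2.55 CPM in Foxp3-DTR, against 11.6 and 2.71 CPM in WT. This sum was highest in WT A, the library with the lowest Tnfrsf4. Cd8a went the other way, with 12 and 0 counts in Foxp3-DTR C and D, against 0 and 0 counts in WT A and C. Lck had the highest level of the list without Tnfrsf4, at 1.86 and 2.20 CPM in Foxp3-DTR, against 6.05 and 2.64 CPM in WT. Which cells the Tnfrsf4 reads came from was not tested. The macrophage, Langerhans cell and granulocyte markers, 12 in the table with 1 at 0 counts throughout, summed to 16.4 and 8.86 CPM in Foxp3-DTR, against 15.3 and 2.64 CPM in WT. H2-Aa was the largest part of this sum in Foxp3-DTR C and WT A. It had 181 and 33 counts in Foxp3-DTR, against 96 and 2 counts in WT. Single markers differed in direction. Ptprc had 2 and 0 counts in Foxp3-DTR, against 24 and 5 in WT, and Fcer1g 1 and 0, against 17 and 13. Cd68 had 29 and 51 counts in Foxp3-DTR, against 17 and 17 in WT, and S100a9 3 and 36, against 0 and 0. Of the 3 tested, 2 had a positive and 1 a negative log2 fold change.

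Tnfrsf21, Fas, Tnfrsf10b and Tnfrsf25 also carry a death domain and were present at lower levels than Tnfrsf1a per kb of exonic length. Tnfrsf21, or death receptor 6 (chromosome 17, 43016555 to 43089189), stood at 30.4 and 35.5 CPM in Foxp3-DTR C and D, against 16.3 and 14.6 CPM in WT A and C. The groups did not overlap, and the log2 fold change was 1.09 ± 0.25 (edgeR adjusted p = 0.0912, DESeq2 0.00998, range over the alternatives 0.00998 to 0.357). Fas, the receptor of Fas ligand (chromosome 19, 34290666 to 34327772), stood at 29.9 and 20.7 CPM in Foxp3-DTR, against 4.51 and 13.4 CPM in WT. The groups did not overlap, and the WT libraries differed most. Fas had a log2 fold change of 1.49 ± 0.54, and edgeR's adjusted p was 0.271. Without WT C the log2 fold change was 2.49 and the edgeR adjusted p 0.0444, and without WT A they were 0.93 and 0.338. Tnfrsf10b, the TRAIL receptor, ranged from 5.28 CPM in WT A to 10.3 CPM in Foxp3-DTR C, and Tnfrsf25, the receptor of Tnfsf15, from 0.774 CPM in WT A to 7.03 CPM in Foxp3-DTR C. Both overlapped between groups, with log2 fold changes of 0.43 ± 0.44 and 1.12 ± 0.89.

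The remaining receptors held decoys and TRAF-binding receptors. Tnfrsf11b, the secreted decoy receptor osteoprotegerin, which binds RANKL and TRAIL, stood at 105 and 63.6 CPM in Foxp3-DTR, against 38.4 and 59.5 CPM in WT. The groups were separated only by the small gap between Foxp3-DTR D and WT C, and the log2 fold change was 0.78 ± 0.32 (edgeR adjusted p = 0.336). Tnfrsf12a, the TWEAK receptor Fn14, stood at 37.5 and 29.6 CPM in Foxp3-DTR, against 38.0 and 20.3 CPM in WT, and the groups overlapped. Tnfrsf19, known as TROY and active in hair follicle epithelium, stood at 3.45 and 24.1 CPM in Foxp3-DTR, against 18.4 and 8.24 CPM in WT. It was lower in Foxp3-DTR C and WT C than in Foxp3-DTR D and WT A, the order also seen for Krt10. The part of epidermal differentiation in this order was not tested. Tnfrsf11a, the RANKL receptor, had 0 and 37 counts in Foxp3-DTR, against 40 and 25 counts in WT.

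Tnfrsf22 and Tnfrsf23, mouse decoy receptors for TRAIL, and Tnfrsf26 lie in 1 cluster of closely related genes on chromosome 7, so their reads are uncertain. Tnfrsf22 had 74 and 41 counts in Foxp3-DTR, against 44 and 47 counts in WT, Tnfrsf23 had 13 and 1 counts in Foxp3-DTR, against 17 and 8 counts in WT, and Tnfrsf26 had 0 throughout. Tnfrsf14, the receptor known as HVEM, was not tested, with 29 and 6 counts in Foxp3-DTR, against 0 and 1 counts in WT. Its ratio of Foxp3-DTR over WT was 36.5, with an exact 95% counting interval of 6.14 to 1483. This leaves out the spread between libraries, and most of the reads came from Foxp3-DTR C. The receptors of B cells and of activated lymphocytes Cd27, Cd40, Tnfrsf8, Tnfrsf9, Tnfrsf13b, Tnfrsf13c and Tnfrsf17 had 0 counts in all 4 libraries.

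**Figure D2:**
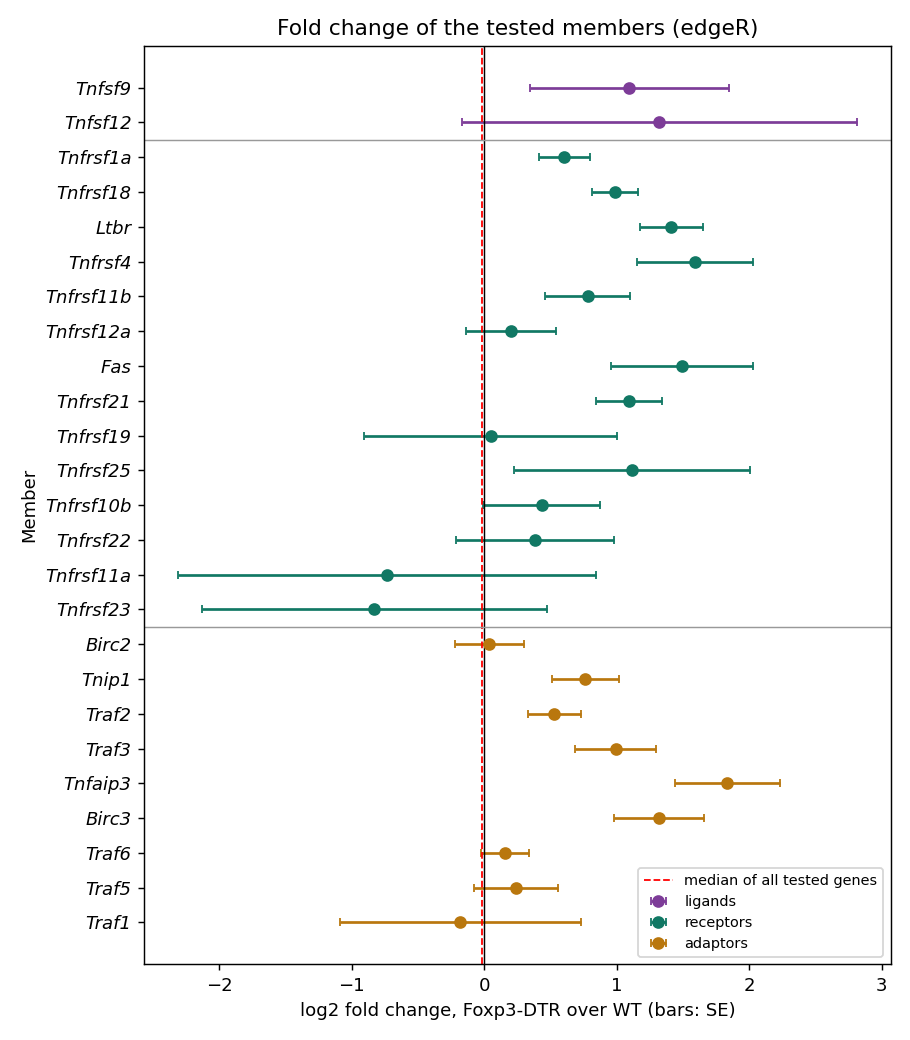
Log2 fold change of each tested member, Foxp3-DTR over WT, with its standard error as a bar, from edgeR's fit. The red dashed line is the median of all genes tested, at -0.01. Points of 22 members lie to the right of 0, those of Tnfrsf11a, Tnfrsf23 and Traf1 to the left, and the widest bars belong to members with few reads.

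Among the adaptors, Tnfaip3 and Birc3 had the largest fold changes. Tnfaip3, or A20, a ubiquitin-editing enzyme that shuts off TNF receptor signalling and is itself a target of NF-kappaB (chromosome 10, 19000910 to 19015657), stood at 119.8 and 63.1 CPM in Foxp3-DTR C and D, against 19.3 and 31.9 CPM in WT A and C. The lowest Foxp3-DTR value was above the highest WT value. The means were 91.4 ± 40.1 CPM in Foxp3-DTR and 25.6 ± 8.89 CPM in WT (SD, n = 2 libraries each). The log2 fold change was 1.84 ± 0.39, a 3.57-fold difference, and edgeR's adjusted p was 0.0901. It passed in DESeq2 (adjusted p = 0.000144) and in edgeR without Foxp3-DTR D (0.00494), within a range of 0.000144 to 0.279 over the alternatives.

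Its binding partner Tnip1, which targets A20 to its substrates, stood at 68.0 and 45.1 CPM in Foxp3-DTR, against 34.6 and 32.1 CPM in WT. The groups did not overlap, and the log2 fold change was 0.76 ± 0.25 (edgeR adjusted p = 0.221). Traf3, the subunit that binds the Map3k14 kinase for degradation (chromosome 12, 111166370 to 111267153), stood at 109 and 59.7 CPM in Foxp3-DTR, against 44.7 and 40.0 CPM in WT. The groups did not overlap, with Foxp3-DTR C well above the other 3 libraries. Traf3 had a log2 fold change of 0.99 ± 0.30, and edgeR's adjusted p was 0.188. DESeq2 gave an adjusted p of 0.0476 and edgeR without Foxp3-DTR D 0.0312, while without Foxp3-DTR C the log2 fold change was 0.50.

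The promoters of Tnfaip3, Tnip1 and Traf3, the adaptors with a match to the NF-kappaB consensus, are given in full, beside that of Ltbr, the member with the smallest p, whose window held no match. Each line is a RefSeq promoter window of 300 bases (GRCm38.p6), 250 before and 50 after the transcription start, read 5′ to 3′ in the direction of the gene. Capitals mark matches to the NF-kappaB consensus on either strand, overlapping matches merged. The windows are chr10:19015361-19015660 on the minus strand, chr11:54962891-54963190 on the minus strand, chr12:111166120-111166419 on the plus strand and chr6:125313836-125314135 on the minus strand. Tnfaip3 has another start in RefSeq, whose window holds no match. The end of the Tnip1 window was not found in a transcript of that gene in the GENCODE annotation, unlike the ends of the other windows. GENCODE places the end of Tnip1 at 54962917, inside the window, so the offset given for Tnip1 holds for the RefSeq start alone.
Tnfaip3: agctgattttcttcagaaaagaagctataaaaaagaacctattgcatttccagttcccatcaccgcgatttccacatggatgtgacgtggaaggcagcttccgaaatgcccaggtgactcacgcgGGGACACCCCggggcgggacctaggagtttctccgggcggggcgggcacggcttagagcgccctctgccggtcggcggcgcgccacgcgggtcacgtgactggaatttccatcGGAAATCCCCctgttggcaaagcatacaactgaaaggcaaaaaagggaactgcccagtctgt
Tnip1: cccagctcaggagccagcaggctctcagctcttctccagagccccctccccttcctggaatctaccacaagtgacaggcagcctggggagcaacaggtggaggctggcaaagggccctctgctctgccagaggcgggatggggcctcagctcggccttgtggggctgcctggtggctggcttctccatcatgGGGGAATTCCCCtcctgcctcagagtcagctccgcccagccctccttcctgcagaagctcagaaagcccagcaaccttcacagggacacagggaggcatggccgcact
Traf3: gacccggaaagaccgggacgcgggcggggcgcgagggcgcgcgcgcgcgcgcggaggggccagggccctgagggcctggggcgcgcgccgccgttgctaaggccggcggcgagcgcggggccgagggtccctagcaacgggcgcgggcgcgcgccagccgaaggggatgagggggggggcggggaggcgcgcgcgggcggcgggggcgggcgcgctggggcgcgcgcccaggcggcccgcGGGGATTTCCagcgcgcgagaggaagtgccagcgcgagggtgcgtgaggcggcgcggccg
Ltbr: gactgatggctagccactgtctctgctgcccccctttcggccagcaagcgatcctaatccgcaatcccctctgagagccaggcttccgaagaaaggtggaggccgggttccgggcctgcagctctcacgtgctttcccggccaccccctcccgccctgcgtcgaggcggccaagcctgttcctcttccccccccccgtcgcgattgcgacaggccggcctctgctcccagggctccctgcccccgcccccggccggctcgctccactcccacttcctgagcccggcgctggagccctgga
In Tnfaip3 the matches GGGACACCCC and GGAAATCCCC began 125 and 12 bases before the start. In Tnip1 the palindrome GGGGAATTCCCC, in which matches overlap, began 58 bases before the start, and in Traf3 the match GGGGATTTCC began 10 bases before it. Of 40 members with a promoter sequence, 7 held a match, or 17.5%, against 10.7% of the 16867 genes of the table with one. By role, 1 of 12 ligands, 3 of 19 receptors and 3 of 9 adaptors held a match. The matching receptors were Tnfrsf25, Tnfrsf8 and Tnfrsf9, with 2 matches each, and the matching ligand was Ltb. In Tnfrsf8 and Tnfrsf9 the matches overlap, and in Tnfrsf25 they began 28 bases before and 36 bases after the start. Tnfrsf25 and Tnfrsf9 each have another RefSeq window that holds no match. Tnfrsf8, Tnfrsf9 and Ltb had at most 3 counts in any library. A match of letters is a description of the sequence and no evidence of binding.

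Birc3 and Birc2 encode the related ubiquitin ligases cIAP2 and cIAP1 and lie 11634 bp apart on chromosome 9 (Birc2 at 7818227 to 7837064, Birc3 at 7848699 to 7873186). Birc3 stood at 68.2 and 45.6 CPM in Foxp3-DTR C and D, against 16.7 and 28.9 CPM in WT A and C. The groups did not overlap, and the log2 fold change was 1.32 ± 0.34 (edgeR adjusted p = 0.128, DESeq2 0.00946, range over the alternatives 0.00946 to 0.581). Birc2 stood at 87.8 and 71.4 CPM in Foxp3-DTR, against 60.5 and 94.3 CPM in WT. Here the groups overlapped, WT C being the highest and WT A the lowest, and the log2 fold change of 0.04 ± 0.26 was -0.23 when WT A was left out and -0.11 when Foxp3-DTR C was left out. The ratio of Birc3 to Birc2 reads in the same library was 0.777 and 0.640 in Foxp3-DTR, against 0.276 and 0.307 in WT. These ratios, chosen after the values were seen, did not overlap between groups (exact permutation p = 0.333, the smallest possible here). Neither did the ratio of Tnfaip3 to Tnip1 reads, at 1.76 and 1.40 in Foxp3-DTR, against 0.558 and 0.992 in WT. In all, 5 such ratios were computed, the fifth being that of Traf3 to Traf2 at 1.79 and 0.994 in Foxp3-DTR, against 0.972 and 1.06 in WT, and the Benjamini-Hochberg adjusted exact p was 0.555 for the 3 without overlap and 0.667 for those of Tnfrsf4 to Tnfrsf18 and Traf3 to Traf2.

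The other TRAF genes lay closer together. Traf2, a ubiquitin ligase recruited by most TRAF-binding receptors, stood at 60.9 and 60.1 CPM in Foxp3-DTR, against 46.0 and 37.9 CPM in WT. The groups did not overlap, and the fold change was 0.53 ± 0.20 on the log2 scale (edgeR adjusted p = 0.286). Traf6, which also serves interleukin 1 and Toll-like receptors, stood at 60.2 and 58.2 CPM in Foxp3-DTR, against 52.3 and 53.9 CPM in WT. Its groups did not overlap, although its log2 fold change was only 0.16 ± 0.18. Traf5 ranged from 10.7 CPM in WT A to 15.5 CPM in Foxp3-DTR C with overlapping groups. Traf1, in other cells a target of NF-kappaB, had 55 and 36 counts in Foxp3-DTR, against 13 and 99 counts in WT, and the WT libraries spanned both Foxp3-DTR libraries.

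**Figure D3:**
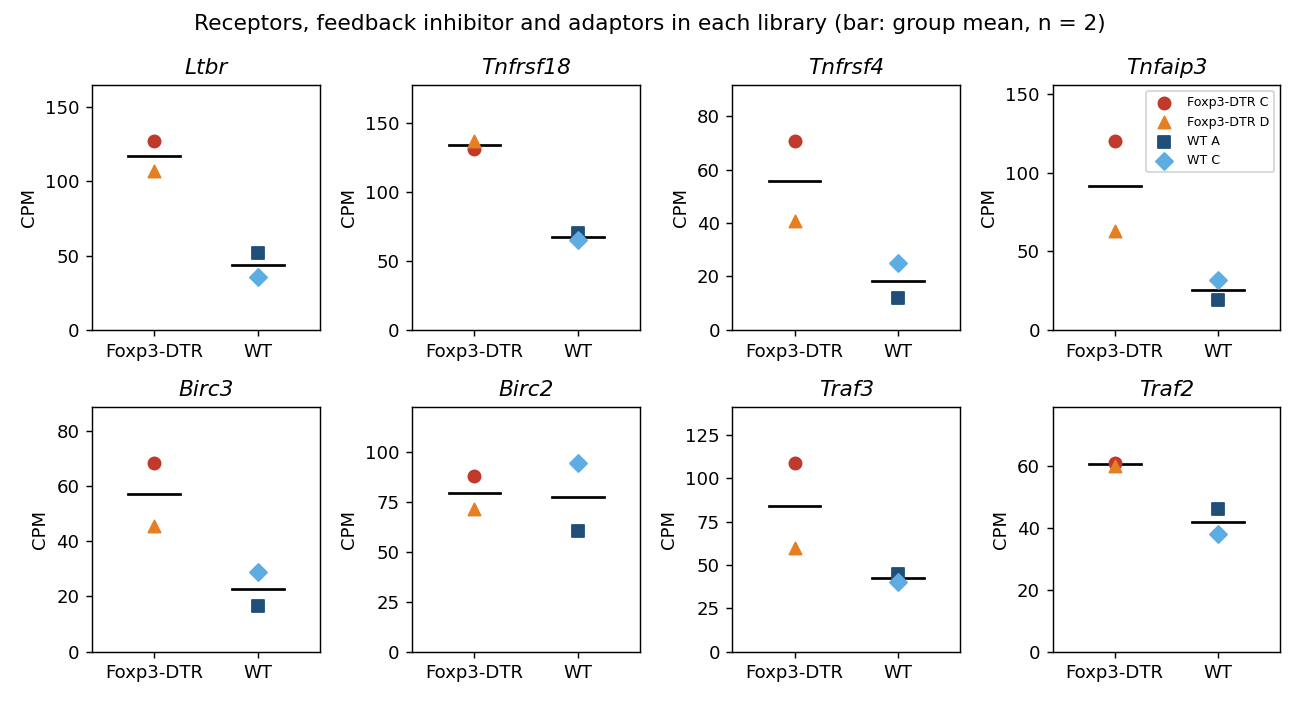
Level in CPM of Ltbr, Tnfrsf18, Tnfrsf4, Tnfaip3, Birc3, Birc2, Traf3 and Traf2 in each library, Foxp3-DTR left of WT, with each axis starting at 0. Symbols are libraries and short lines are group means over 2 libraries. The groups are apart for 7 of the 8 genes, which were picked with their values known, and overlap for Birc2. Of all 25 tested members, 15 had both Foxp3-DTR libraries above both WT libraries, against 22.0% of all genes tested. Foxp3-DTR C lies well above Foxp3-DTR D for Tnfrsf4, Tnfaip3 and Traf3.

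Of 18 tested NF-kappaB subunits, inhibitors and kinases downstream of the receptors, 4 rose and 0 fell by edgeR's adjusted p (0.820% and 0.426% of all genes), and the list's median was 0.68 on the log2 fold change scale. Map3k14, the kinase that the Traf2, Traf3 and Birc complex degrades, stood at 165 and 115 CPM in Foxp3-DTR C and D, against 10.3 and 11.3 CPM in WT A and C. Map3k14 rose by 3.69 ± 0.25 on the log2 scale, or 12.9-fold (edgeR adjusted p = 0.0033). Relb, the NF-kappaB subunit activated through Map3k14, stood at 67.8 and 43.6 CPM in Foxp3-DTR, against 14.9 and 13.9 CPM in WT (log2 fold change 1.95, edgeR adjusted p = 0.0420). The inhibitor Nfkbia (log2 fold change 1.83) and the cofactor Bcl3 (7.30, on 8 counts in WT) were the other 2. Nfkb2, the precursor of the partner of Relb, stood at 170.5 and 93.0 CPM in Foxp3-DTR, against 38.8 and 36.7 CPM in WT, with an edgeR adjusted p of 0.0540. Map3k14 and Nfkbia were called higher in all 8 alternatives. Relb lost the call without WT C and without Foxp3-DTR C, and Bcl3 lost it in limma-voom, without the filter on low counts, and without Foxp3-DTR C or D.

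Genes of death signalling, of ligand shedding and of the ectodysplasin branch gave no call in edgeR's main fit, that of all 4 libraries with the filter on low counts. Of 17 death signalling genes, 0 passed in either direction, and the median log2 fold change was 0.13. At an unadjusted p under 0.05, 2 were higher and 0 lower, against 6.76% and 7.89% of all genes tested. DESeq2 and edgeR without the filter on low counts each called 1 of the 17 higher and 0 lower, and limma-voom called 0. Over all genes, DESeq2 called 3.75% higher and 3.97% lower, and edgeR without the filter 1.77% and 1.61%. Of 6 shedding and trimming genes 0 passed in edgeR's main fit. At an unadjusted p under 0.05, 1 was higher and 1 lower, against the same 6.76% and 7.89% of all genes. Timp3, an inhibitor of the TNF-shedding protease Adam17, had the smallest p, at 41.5 and 63.4 CPM in Foxp3-DTR, against 155 and 131 CPM in WT (log2 fold change -1.45 ± 0.25, edgeR adjusted p = 0.0543). DESeq2 and edgeR without the filter on low counts both called Timp3 lower and Rhbdf1, which traffics Adam17, higher, and limma-voom called Timp3 alone. Adam17 itself stood at 80.6 and 73.2 CPM in Foxp3-DTR, against 77.2 and 79.3 CPM in WT.

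Of 11 tested superfamily genes outside the member rule, 0 passed in edgeR's main fit and in limma-voom. DESeq2 and edgeR without the filter on low counts both called Tnip2 higher and Ngfr lower. In the main fit 1 was higher and 3 lower at an unadjusted p under 0.05, against 6.76% and 7.89% of all genes tested. Both Foxp3-DTR libraries stood below both WT libraries for 5 of the 11 and above for 1, against 23.7% and 22.0% of all genes tested, and the median log2 fold change was -0.19. The 5 were named after their values were seen. They were Ngfr, the low-affinity neurotrophin receptor, the ectodysplasin ligand Eda, its receptor Edar and adaptor Edaradd, which act in hair placodes, and Relt. Ngfr stood at 39.9 and 54.8 CPM in Foxp3-DTR, against 94.0 and 94.0 CPM in WT (log2 fold change -0.99 ± 0.21, edgeR adjusted p = 0.0838). Eda stood at 26.1 and 37.6 CPM in Foxp3-DTR, against 49.2 and 54.3 CPM in WT, and Edaradd at 23.6 and 18.99 CPM in Foxp3-DTR, against 29.5 and 42.4 CPM in WT. The gene above WT in both Foxp3-DTR libraries was Tnip2, another A20-binding inhibitor of NF-kappaB, at 52.9 and 39.2 CPM in Foxp3-DTR, against 17.2 and 23.1 CPM in WT.

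Calls among the members depended on the method and on single libraries, while no alternative called any of the 25 tested members lower. DESeq2 called 8 members higher (Ltbr, Tnfrsf18, Tnfrsf21, Tnfrsf4, Tnfrsf1a, Tnfaip3, Birc3 and Traf3), with 3.75% of all genes called higher and 3.97% lower. Limma-voom called Ltbr alone, with 0.875% of all genes higher and 0.511% lower. EdgeR without the filter on low counts called Ltbr and Tnfrsf18, with 1.77% higher and 1.61% lower, and edgeR with the size factors of DESeq2 called 0 members, with 0.867% higher and 0.441% lower. Leaving out WT A added a call for Ltbr (0.993% of all genes higher, 0.316% lower), and leaving out WT C a call for Fas (1.43% higher, 1.20% lower). Leaving out Foxp3-DTR D added calls for Ltbr, Traf3 and Tnfaip3 (1.52% higher, 1.64% lower), and leaving out Foxp3-DTR C added 0 (0.497% higher, 0.105% lower). A group left with 1 library is assumed to vary like the other. In the plot of fold changes under these alternatives, the lowest and the highest alternative value of each of the 9 members drawn came from leaving out a library.

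**Figure D4:**
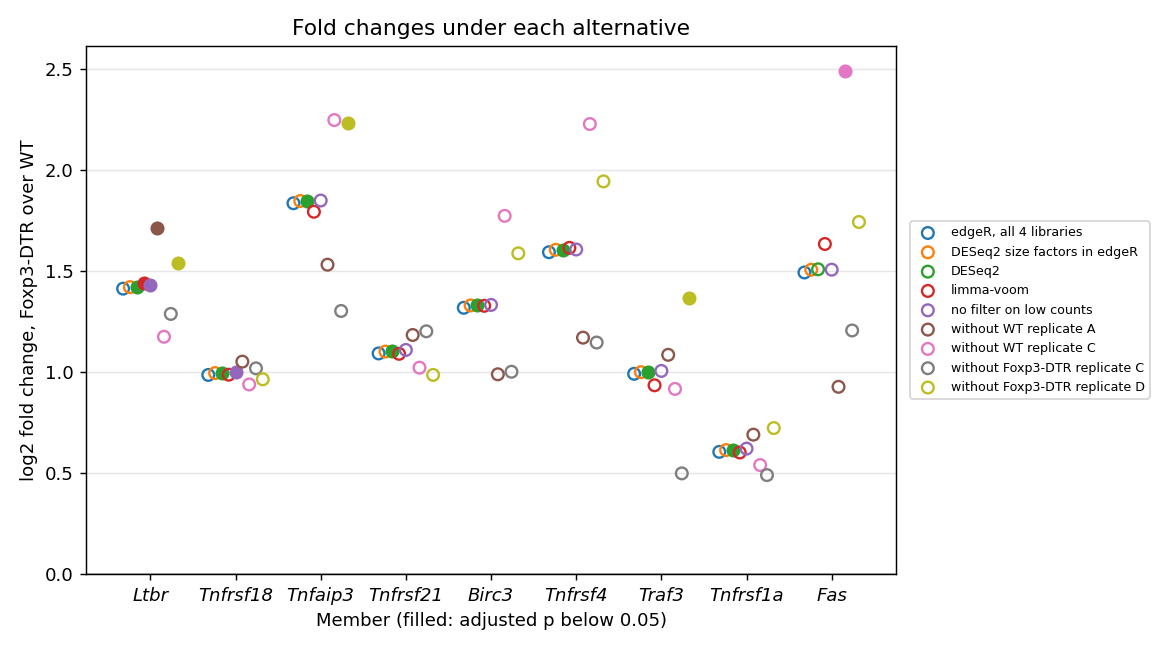
Log2 fold change, Foxp3-DTR over WT, of 9 members in edgeR's fit of all 4 libraries and under 8 alternatives, each in its own colour. Filled circles mark an adjusted p below 0.05. The 9 drawn are the tested members past that threshold in some alternative, so they were picked by these same values. For these 9 genes all values are above 0, while the sign turned for 7 of the 25 tested members, none of them drawn. Ltbr has the most filled circles, 5 of 8.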

How the data were processed

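The authors deposited raw read counts by gene symbol, 1 column for each library, not normalized. A stranded mRNA kit was used, per the labels' protocols. HTSeq 0.6.1, TopHat2 2.0.12 and build mm10 are named in the submitters' processing notes; the annotation and the counter's strand setting were not given in the sources used here. The 5 special rows of the counter, which name no gene, held 62.0% to 70.1% of a library's counts, mostly alignments that were not unique, and entered neither library sizes nor tests.

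All 24084 gene rows entered edgeR 4.0.16 in R 4.3.3: filterByExpr, TMM factors, robust glmQLFit and glmQLFTest on the group with no covariate, with Benjamini-Hochberg adjustment over the 12920 genes tested and a threshold of 0.05. The common biological coefficient of variation was 0.309. Alternatives were DESeq2's size factors in edgeR, DESeq2 1.42.0, limma-voom (limma 3.58.1), no filter beyond 1 count, and leaving out each library. The procedure was tested on simulated data. Standard errors come from the fold change and the F statistic. Levels between genes were compared per kb of exonic length. Coordinates and lengths are from GENCODE M21 on GRCm38, the assembly mm10 names, in which all 50 members matched by symbol. For a gene with 0 counts in a group, the fold was set against a floor of 3 counts over that group. The reads of the other group were taken as exact, so their counting error and the spread between libraries were left out.

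Members, subgroups and gene lists were chosen with earlier results of these data known. Genes described in full were those past the threshold (0 members), and per subgroup the 5 with the smallest p, the 4 with the highest level per kb and those absent from 1 group with at least 10 counts in the other, together with Tnfrsf4. The values of all other members were given after they were seen. Whether each library is a different animal is not stated, and the spread behind every p-value may therefore be technical. A gene of the death signalling list is not reported here by name.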

Additional observations from a re-analysis of the deposited data

How the results depend on the processing

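Of 200 fold changes of the 25 tested members under the 8 alternatives, 188 kept the sign they had in edgeR's fit of all 4 libraries, and 18 members were positive in that fit and in all 8. The number of members called higher, 0 in that fit, was 8 with DESeq2, 1 with limma-voom, 2 without the filter on low counts and 0 to 3 when a library was left out. Over all genes, 106 were called higher and 55 lower, against 485 and 513 with DESeq2, 277 and 252 without the filter, and 66 to 203 higher and 14 to 220 lower when a library was left out. The cause of these differences was not tested. The sign turned for 7 members, none of them past the threshold in any setting. Leaving out a library gave log2 fold changes of -0.18 to 0.74 for Tnfrsf12a, -1.94 to 0.86 for Tnfrsf19, -0.040 to 0.72 for Tnfrsf22, -8.05 to 0.27 for Tnfrsf11a, -3.42 to 0.043 for Tnfrsf23, -0.23 to 0.40 for Birc2 and -0.96 to 1.75 for Traf1. The lowest value for Tnfrsf11a sets 0 counts in Foxp3-DTR C against WT and depends on the prior count. Limma-voom gave -0.44 for Tnfrsf19 and 0.28 for Traf1. No paired analysis was possible because the groups share only the replicate letter C. With 2 libraries a group and all member ligands below 3 CPM, these ligands' levels rest on few reads, and a difference that missed the threshold may still exist.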
